A study of Homo sapiens with 14 samples.

Results

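The genes described here encode proteins that detect double-stranded RNA in human cells, with the adaptor and cofactors they work through. They were taken by name from the deposited count table: RIGI, IFIH1, DHX58, EIF2AK2, MAVS, TLR3, ZBP1, NLRP1, ZC3HAV1 and TRIM25. All 10 were found among the 62699 genes of the table, and no threshold on their values was used. The label "cytosolic sensors" covers most of them but not all. RIG-I (RIGI), MDA5 (IFIH1) and PKR (EIF2AK2) bind RNA duplexes in the cytosol, whereas TLR3 sits in endosomes, MAVS is a mitochondrial adaptor and TRIM25 is a ubiquitin ligase.

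RIG-I and MDA5 are helicases that scan cytosolic RNA. RIG-I prefers short duplexes with a 5' triphosphate end, and MDA5 forms filaments along long duplexes. Both signal through MAVS to the transcription factors IRF3 and NF-kB, which switch on interferon genes, and interferon in turn raises the transcription of several of the sensors. ADAR1, the product of ADAR, converts adenosine to inosine in RNA duplexes. It is known as a brake on MDA5, PKR and ZBP1. For MDA5 the known reason is that edited cellular duplexes are poorer ligands.

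RNA sequencing was done on 14 libraries of poly(A) RNA from 4 established lines of human cancer: AGS (stomach), NCI-H1395 (adenocarcinoma of the lung) and, from triple-negative tumours of the breast, BT-549 and MDA-MB-231. Each line gave 1 library with a control siRNA and 2 libraries with an siRNA against ADAR, numbered 1 and 2. An siRNA is a short duplex that guides a nuclease to a transcript with matching sequence, so it lowers ADAR and does not delete it. All 12 of these libraries therefore come from cells that received a duplex RNA, the controls included. MDA-MB-231 gave a further library with NOP14 overexpression, a nucleolar protein of small-subunit ribosome assembly, and its control, named PCDH. The siRNA sequences, the times of collection and the meaning of numbers 1 and 2 (repeats, or different siRNAs) are stated in none of the sources used here. The series compares lowered ADAR1 with control in each line, and NOP14 overexpression with PCDH.

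Promoter sequence is shown because several of these genes are themselves known to be raised by interferon, whose factors bind a short repeated motif. RefSeq promoter windows of 300 bases (250 before to 50 after the start, GRCh38.p14) matched 7 of the 10 genes by symbol. DHX58, ZBP1 and NLRP1 were not matched. The windows were searched on both strands for GAAANNGAAA, the spaced repeat that interferon regulatory factors and the STAT complex bind, and for its shorter form GAAANGAAA. Both motifs were chosen with the sequences in view, and matches that shared bases were each kept. GAAANNGAAA lay in the promoters of IFIH1, EIF2AK2 and TLR3, and in 3.57% of all 35116 promoter windows. GAAANGAAA lay in those of RIGI and TRIM25, and in 3.12% of all windows. The windows of MAVS and ZC3HAV1 held neither. One stretch of 30 bases is shown for each gene with a match, read 5' to 3' on the gene's own strand. Capitals mark the match, which appears as TTTC repeats where it lies on the opposite strand.
IFIH1, chr2:162318686-162318715, minus strand: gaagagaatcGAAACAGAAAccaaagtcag
EIF2AK2, chr2:37156967-37156996, minus strand: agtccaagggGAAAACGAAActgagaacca
TLR3, chr4:186069142-186069171, plus strand: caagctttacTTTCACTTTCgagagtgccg
RIGI, chr9:32526381-32526410, minus strand: cggtgcggaggGAAACGAAActagcccgag
TRIM25, chr17:56914034-56914063, minus strand: ctcgagctaggTTTCGTTTCctcggcggcc
IFIH1 held 2 further overlapping matches on the opposite strand, which begin 159 and 153 bases before its start. In IFIH1, EIF2AK2, TLR3 and TRIM25 the match shown begins 21, 6, 4 and 3 bases before the start, and in RIGI 203 bases before it. A match is a description of these letters and not evidence of binding.

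Total counts per library ranged from 13338338 to 27828376. Levels are given as CPM, the usual unit of counts relative to sequencing depth, after TMM scaling of the libraries. ADAR in the ADAR siRNA libraries was at 32.3% and 33.8% of its control level for MDA-MB-231, and between 10.6% and 24.0% for the 6 libraries of the other lines. NOP14 was at 852 CPM with overexpression and 129 CPM with PCDH. Markers of the labelled tissues were not present in each line. In NCI-H1395 the lung markers NKX2-1, NAPSA, SFTPB and SFTPC summed to between 0.16 and 1.32 CPM, with SFTPC at 0 counts, and EPCAM, CDH1 and KRT19 to between 0.587 and 1.43 CPM. The same epithelial markers summed to at most 0.227 CPM in BT-549, and to 1077 CPM or more in AGS. In MDA-MB-231 they summed to between 310.0 and 569 CPM. In AGS, TFF1 and GATA6 passed 1 CPM and TFF2 and GKN1 were at 0 counts, with the sum of 6 gastric markers between 152 and 175 CPM. That sum lay between 35.6 and 56.2 CPM in MDA-MB-231, where TFF1, TFF2, MUC5AC and GATA6 passed 1 CPM. Of 9 leukocyte markers, CD3E and MS4A1 were at 0 counts in every library, and the sum of the list lay between 2.09 and 9.65 CPM. No separate cultures are named for libraries 1 and 2, so p-values measure only the spread between these samples.

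**Figure D1:**
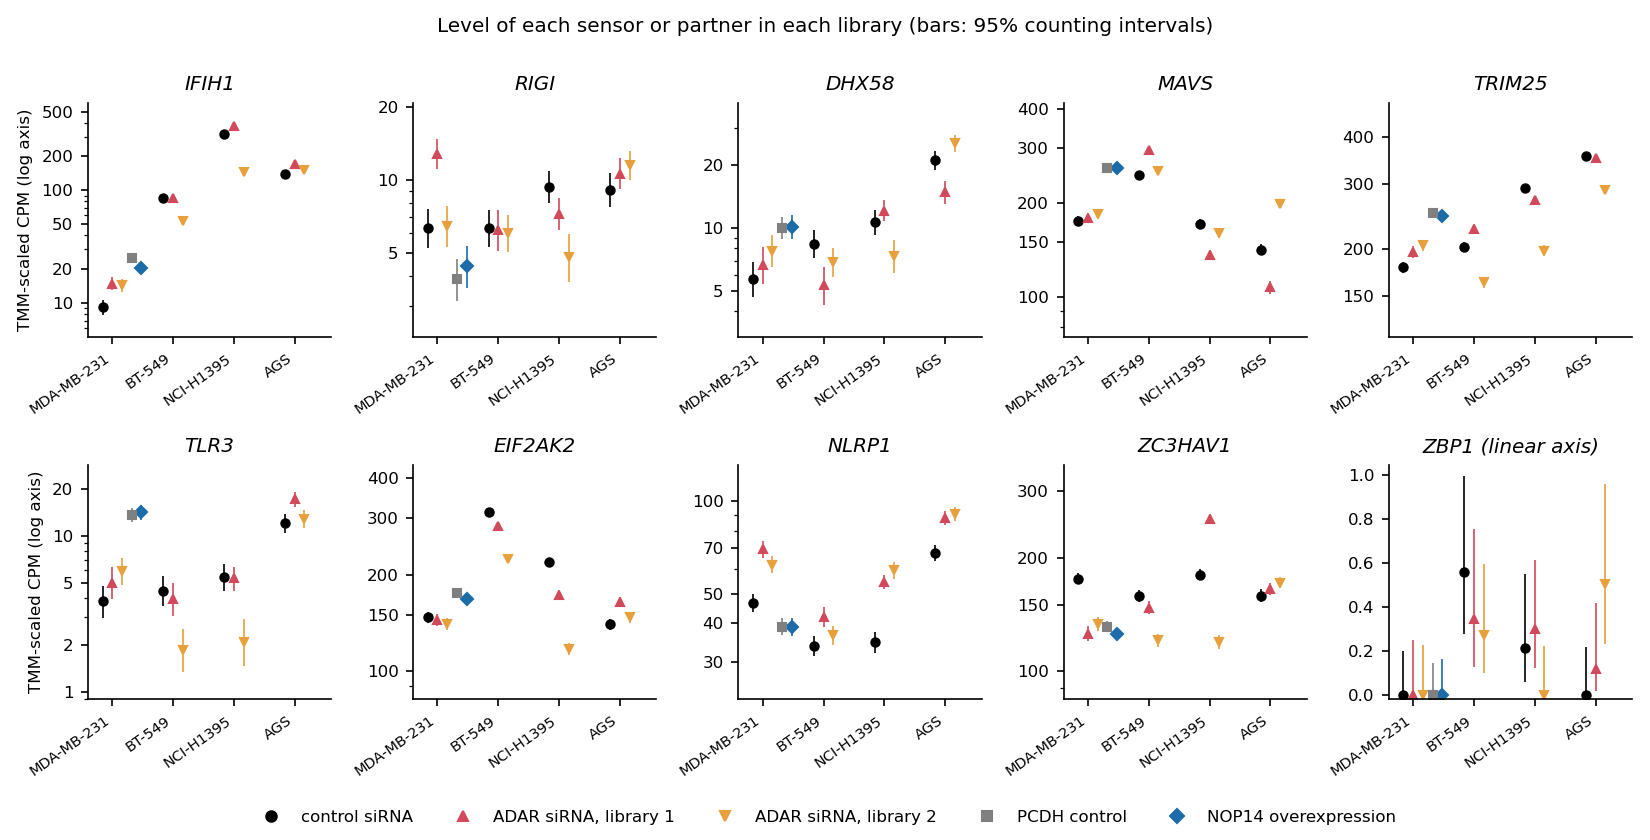
Level of each gene in each of the 14 libraries, in TMM-scaled CPM on a log axis (linear for ZBP1), by cell line. Symbols mark the treatment and bars are 95% counting intervals. IFIH1 runs from 9.25 CPM in the MDA-MB-231 control to 372 CPM in library 1 of NCI-H1395, whereas ZC3HAV1 lies between 158 and 180 CPM in the 4 control siRNA libraries.

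IFIH1 (ENSG00000115267.10; hg38, chr2:162267074-162318684, minus strand) encodes MDA5, the receptor for long RNA duplexes, and its level separated the lines more than that of any other of the 9 genes tested. With control siRNA it stood at 9.25 CPM in MDA-MB-231, 85.3 CPM in BT-549, 139 CPM in AGS and 315 CPM in NCI-H1395. The highest line was 34.0-fold above the lowest, and 12.6-fold with the PCDH control (24.97 CPM) as the MDA-MB-231 library. Across the 10731 genes with at least 1 CPM in each control siRNA library, the median of this range was 2.64-fold, and 1.88% of genes had a larger one (5.4% with PCDH). MDA-MB-231 stood below each of the other lines in edgeR's quasi-likelihood test. The log2 differences were 3.20 ± 0.59 (SE) for BT-549 (adjusted p = 0.00219), 3.90 ± 0.61 for AGS (adjusted p = 0.000545) and 5.08 ± 0.63 for NCI-H1395 (adjusted p = 0.00016). NCI-H1395 was also above BT-549 by 1.88 ± 0.53 (edgeR adjusted p = 0.0295). Neighbours in the order NCI-H1395, AGS, BT-549 did not differ beyond the spread, with edgeR adjusted p = 0.126 for the upper pair and 0.374 for the lower. With all 3 siRNA libraries of each line, in a fit with terms for line and treatment, both pairs were called. AGS was below NCI-H1395 (log2 difference -0.83, edgeR adjusted p = 0.0324) and above BT-549 (1.07, edgeR adjusted p = 0.00864). That fit assumes 1 ADAR siRNA effect shared by all lines, and it called between 11196 and 13349 of 21392 genes for each pair of lines. This limit holds for each later use of all 3 siRNA libraries, and those calls are no separate support for a difference between controls. The tests between control siRNA libraries take the spread from libraries 1 and 2 of each line and assume that the lone control varies alike. In bulk RNA, fewer cells with a transcript and less of it per cell cannot be told apart.

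RIGI (ENSG00000107201.11; chr9:32455302-32526208, minus strand), the receptor for short triphosphate duplexes, had low counts in all 4 lines. Its control siRNA levels were 6.31 CPM in MDA-MB-231, 6.32 CPM in BT-549, 9.34 CPM in NCI-H1395 and 9.07 CPM in AGS. None of the 6 pairs of lines differed by edgeR's test, with adjusted p between 0.439 and 1. With all 3 siRNA libraries of each line, and a shared ADAR siRNA effect assumed, AGS was above BT-549 (log2 difference 0.77, edgeR adjusted p = 0.0301). The RIGI count carries a doubt of its own. Of its 10345 exonic bases, 4471 (43.2%) lie in exons of ENSG00000288684 on the same strand, and so do 2669 of 2775 coding bases (96.2%) of the GENCODE 29 annotation. Of the 4941 exonic bases of that gene, 4471 are these shared ones, and it had 0 to 4 counts per library. Hardly any reads of shared exons were thus counted for that gene. Whether such reads were lost or given to RIGI is not known. RIGI could be undercounted, and its low level is not read as a trait of these lines.

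DHX58 (ENSG00000108771.13; chr17:42101404-42112714, minus strand) encodes LGP2, a RIG-I-like helicase without the signalling domains that modulates the other receptors. It stood at 5.72 CPM in MDA-MB-231, 8.44 CPM in BT-549, 10.7 CPM in NCI-H1395 and 21.2 CPM in AGS. AGS was above MDA-MB-231 by a log2 difference of 1.89 ± 0.49 (edgeR adjusted p = 0.00702) and above BT-549 by 1.33 ± 0.47 (edgeR adjusted p = 0.0421). The call against BT-549 was lost with DESeq2 (adjusted p = 0.0701). AGS stood at 3.70 times the MDA-MB-231 control siRNA library and at 2.11 times PCDH. With control siRNA the order of the lines was the same for DHX58, TLR3 and TRIM25.

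MAVS (ENSG00000088888.18; chr20:3846799-3876123, plus strand), the adaptor below RIG-I and MDA5, had control siRNA levels of 142 CPM in AGS, 171 CPM in NCI-H1395, 176 CPM in MDA-MB-231 and 246 CPM in BT-549, a range of 1.74-fold. None of the 6 pairs differed by edgeR's test (adjusted p between 0.114 and 0.9799). With all 3 siRNA libraries of each line, and a shared ADAR siRNA effect assumed, BT-549 was above MDA-MB-231, NCI-H1395 and AGS (edgeR adjusted p = 0.022, 0.00223 and 0.00118). For these pairs 12809, 11196 and 12500 of 21392 genes were called in that fit. Against MDA-MB-231 the direction turned with the control used, since PCDH held 259 CPM of MAVS and BT-549 stood at 0.952 times it. TRIM25 (ENSG00000121060.19; chr17:56836387-56914080, minus strand) attaches ubiquitin to RIG-I and assists ZC3HAV1. Its levels were 179 CPM in MDA-MB-231, 203 CPM in BT-549, 292 CPM in NCI-H1395 and 356 CPM in AGS. Of its 6 pairs, AGS against MDA-MB-231 was past the threshold (0.99 ± 0.32, edgeR adjusted p = 0.0275). AGS against BT-549 missed it (0.81 ± 0.32, edgeR adjusted p = 0.0714) but was called with library totals (0.041) and with DESeq2 (adjusted p = 0.0408). This pair was also called with all 3 siRNA libraries of each line and a shared ADAR siRNA effect assumed (edgeR adjusted p = 0.000717). Of the exonic bases of TRIM25, 6.7% are shared with other genes, and how such reads were counted is not known.

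TLR3 (ENSG00000164342.14; chr4:186068911-186088073, plus strand), the endosomal receptor that signals through TICAM1, stood at 3.80 CPM in MDA-MB-231, 4.45 CPM in BT-549, 5.44 CPM in NCI-H1395 and 12.1 CPM in AGS. AGS was above MDA-MB-231 by 1.66 ± 0.58 (edgeR adjusted p = 0.0366), a call lost with DESeq2 (adjusted p = 0.121). The direction turned with the MDA-MB-231 control used, since the PCDH control of that line held 13.6 CPM of TLR3 and AGS stood at 0.888 times it. With all 3 siRNA libraries of each line, and a shared ADAR siRNA effect assumed, TLR3 in AGS was also above BT-549 (edgeR adjusted p = 2.6e-05) and NCI-H1395 (0.000171). EIF2AK2 (ENSG00000055332.19; chr2:37099210-37157522, minus strand) encodes PKR, the kinase that halts translation by phosphorylating eIF2-alpha. It had its highest level in BT-549, at 313 CPM, against 219 CPM in NCI-H1395, 147 CPM in MDA-MB-231 and 140 CPM in AGS. BT-549 was above MDA-MB-231 by 1.09 ± 0.32 (edgeR adjusted p = 0.0185), and AGS was below BT-549 with a log2 difference of -1.16 ± 0.32 (edgeR adjusted p = 0.0114).

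NLRP1 (ENSG00000091592.17; chr17:5499415-5619424, minus strand), an inflammasome sensor that also responds to long RNA duplexes, stood at 33.8 CPM in BT-549, 34.8 CPM in NCI-H1395, 46.5 CPM in MDA-MB-231 and 67.7 CPM in AGS. AGS was above BT-549 by 1.004 ± 0.31 (edgeR adjusted p = 0.0214) and above NCI-H1395 by 0.96 ± 0.31 (edgeR adjusted p = 0.0281). With library totals in place of TMM the second of these missed the threshold (edgeR adjusted p = 0.0544). ZC3HAV1 (ENSG00000105939.14; chr7:139043515-139132122, minus strand) encodes ZAP, which binds CpG-rich RNA and recruits its decay. It was the most even gene of the set, at 158 CPM in BT-549, 158 CPM in AGS, 176 CPM in MDA-MB-231 and 180 CPM in NCI-H1395. Of the genes with at least 1 CPM in each control, 99.6% had a larger range than its 1.14-fold. With PCDH as the MDA-MB-231 library the range was 1.37-fold, and 94.8% of genes had a larger one. No pair of lines with control siRNA differed by edgeR's test (adjusted p between 0.799 and 1).

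ZBP1 (ENSG00000124256.15; chr20:57603846-57620576, minus strand), which binds left-handed (Z-form) duplexes and starts necroptosis through RIPK3, was at or near 0. It had 0 counts in all 5 MDA-MB-231 libraries, which allows at most 0.202 CPM at a floor of 3 counts. Its counts in the control, library 1 and library 2 were 11, 6 and 6 for BT-549, 4, 7 and 0 for NCI-H1395, and 0, 2 and 9 for AGS. It failed the filter on low counts and was not tested. The counting intervals of its ratio to control covered 1 in BT-549 and NCI-H1395, so a difference there was not detectable at this depth. In AGS the 9 counts of library 2 against 0 in the control lay outside counting error, and the 2 counts of library 1 did not.

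Between lines with control siRNA, the members called by edgeR were 2 of 9 for BT-549 against MDA-MB-231, where 26.8% of all genes tested were called. They were 1 of 9 for NCI-H1395 against MDA-MB-231 (25.1% of all genes) and 4 of 9 for AGS against MDA-MB-231 (30.8%). They were 1 of 9 for NCI-H1395 against BT-549 (20.4%, with 2736 genes higher and 2148 lower, or 3228 and 1639 with library totals), 3 of 9 for AGS against BT-549 (28.4%) and 1 of 9 for AGS against NCI-H1395 (27.4%). With 9 genes, counts of 1 to 4 lie near these shares, and nothing is read from them about the set. On a scale per exon length (TPM, which divides each count by the gene's length before scaling to depth), the order of the genes within a control library changed with the line. IFIH1 ranked 1 in NCI-H1395 at 259 TPM and 6 in MDA-MB-231 at 5.16 TPM, where ZC3HAV1 led at 60.4 TPM. EIF2AK2 led in BT-549 at 99.4 TPM and TRIM25 in AGS at 113 TPM. RIGI was never above 3.88 TPM in a control library, a value that the possible undercount given above would lower.

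With ADAR siRNA none of the 9 testable genes was called over the 4 lines by edgeR's quasi-likelihood test. The background was 29 of 21944 genes called, or 0.132%, of which 24 were higher and 5 lower (34 and 13 with median-ratio scaling). The median log2 fold change of the 9 was -0.02, against 0.05 over all genes tested, with 4 genes above 0 and 5 below. At an unadjusted p under 0.05, 1 of the 9 remained, NLRP1, which DESeq2 called. The same held for 14.8% of all genes tested, so nothing is read from that count about the set. Within lines 0 of 9 were called in MDA-MB-231 (background 0.117%), and 0 of 9 in BT-549, NCI-H1395 and AGS, where 0.00417% of genes, ADAR alone, were called in each. At an unadjusted p under 0.05 there were 2 of 9 in NCI-H1395, EIF2AK2 and NLRP1 (5.71% of all genes), and 0 of 9 in each of the other lines. DESeq2 called none of the 9 within any line either. edgeR's F test of a difference in response between lines called 0 of 9 (background 0.0125%), with unadjusted p between 0.257 and 0.838.

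NLRP1 was the only one of the 9 genes that lay on the same side of its control in every ADAR siRNA library. In MDA-MB-231 the control held 46.5 CPM of NLRP1, library 1 69.5 CPM and library 2 62.0 CPM. The same 3 libraries held 33.8, 42.0 and 36.7 CPM for BT-549, 34.8, 54.5 and 59.5 CPM for NCI-H1395, and 67.7, 87.9 and 90.5 CPM for AGS. All 8 ADAR siRNA libraries lay above their control, by 1.08 to 1.71 times, and 7 of the 8 counting intervals lay above 1. Among the 15336 genes with a mean of at least 1 CPM, 2.24% were higher in 8 of 8 libraries, and no other gene of the set was. None of the set was lower in 8 of 8, which held for 4.32% of genes. The log2 fold change of NLRP1 over the lines, 0.47 ± 0.12, missed the threshold (edgeR adjusted p = 0.12). DESeq2 called it at 0.44 ± 0.12 (adjusted p = 0.0139), and edgeR's adjusted p under the other settings lay between 0.0975 and 0.395. Leaving out 1 line at a time left the log2 value between 0.40 without NCI-H1395 and 0.55 without BT-549. Of the exonic bases of NLRP1, 1500 (7.4%, none of them coding) are shared with a gene that had 0 counts.

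**Figure D2:**
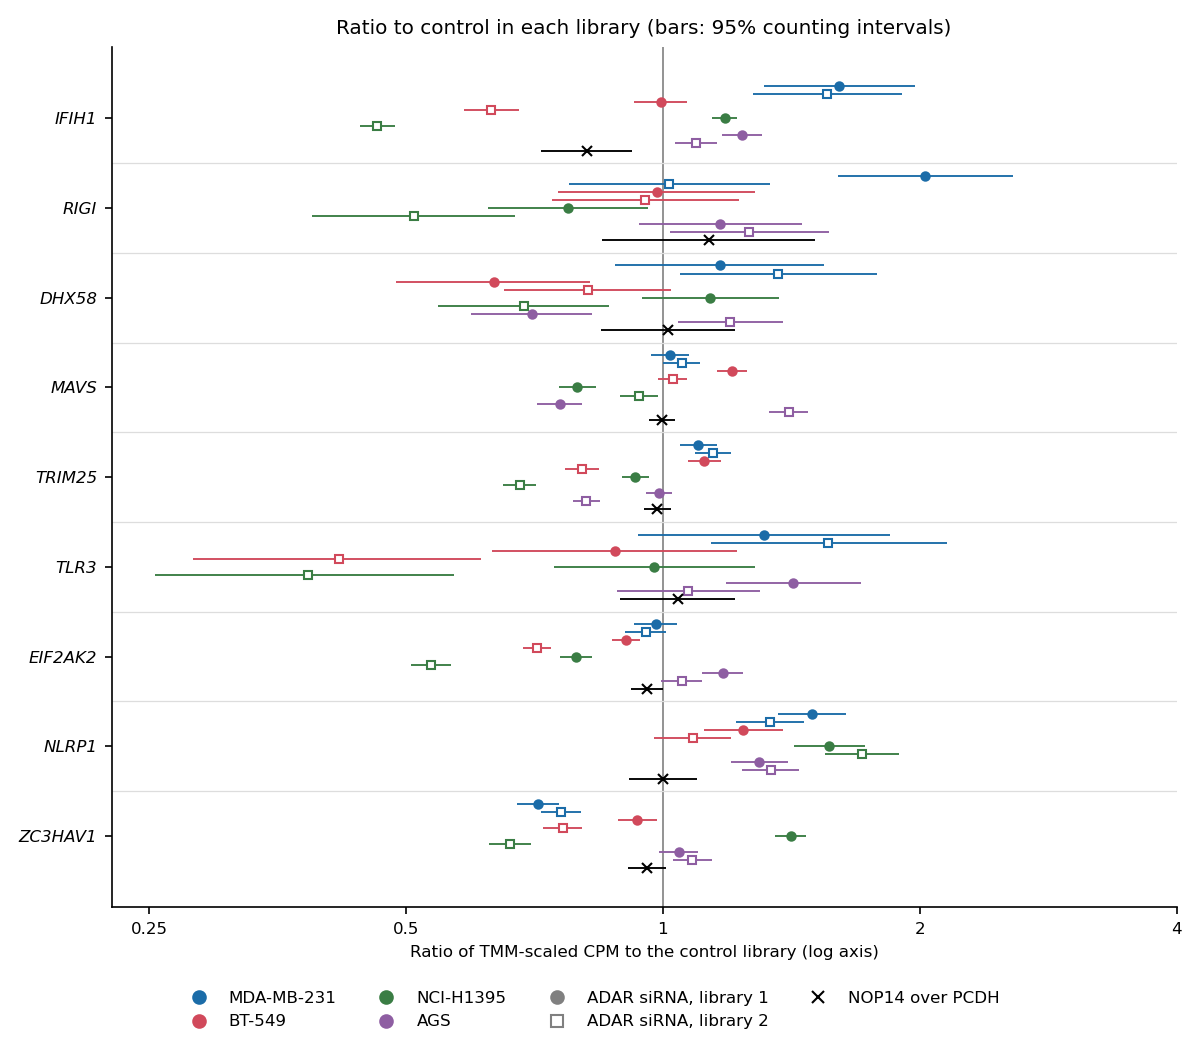
Ratio of TMM-scaled CPM to the control library, on a log axis, for 9 genes in the 8 ADAR siRNA libraries and in the NOP14 library over PCDH. Colours mark the lines, filled circles library 1, open squares library 2, crosses NOP14, and bars 95% counting intervals. The 8 ADAR siRNA points of NLRP1 lie between 1.08 and 1.71, whereas those of IFIH1 run from 0.463 to 1.61.

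The receptors of the RIG-I family differed in direction between lines, and in places between the libraries of a line. In MDA-MB-231 IFIH1 was at 14.9 and 14.4 CPM with ADAR siRNA against 9.25 CPM with control, ratios of 1.61 and 1.56. In BT-549 it was at 84.8 and 53.7 CPM against 85.3 CPM, and in AGS at 172 and 152 CPM against 139 CPM. In NCI-H1395 libraries 1 and 2 stood on opposite sides of the control, at 372 and 146 CPM against 315 CPM, ratios of 1.18 and 0.463. For IFIH1 the 4 lines together gave 0.07 ± 0.15 on the log2 scale (edgeR adjusted p = 0.867). It was -0.07 without MDA-MB-231 and -0.32 with the libraries numbered 2 alone, so its direction was not settled.

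RIGI was at 12.8 and 6.42 CPM against 6.31 CPM in MDA-MB-231, so library 1 was at 2.03 times the control and library 2 at 1.02 times. In BT-549 it was at 6.21 and 6.03 CPM against 6.32 CPM. It lay below its control in both libraries of NCI-H1395 (7.23 and 4.78 against 9.34 CPM) and above in both of AGS (10.6 and 11.4 against 9.07 CPM). DHX58 was above control in both libraries of MDA-MB-231 (6.67 and 7.81 against 5.72 CPM) and below in both of BT-549 (5.35 and 6.89 against 8.44 CPM). Its libraries stood on opposite sides of the control in NCI-H1395 (12.1 and 7.34 against 10.7 CPM) and in AGS (14.9 and 25.4 against 21.2 CPM). The log2 fold changes from all 4 lines were 0.07 ± 0.20 for RIGI and -0.05 ± 0.17 for DHX58 (edgeR adjusted p = 0.903 and 0.922). RIGI stood at -0.09 without MDA-MB-231 and -0.01 without AGS, and DHX58 at 0.07 without BT-549.

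In MDA-MB-231 the ratios to control were 1.02 and 1.05 for MAVS and 1.10 and 1.14 for TRIM25. In AGS the MAVS libraries were at 107 and 199 CPM against 142 CPM, ratios of 0.757 and 1.40. MAVS was at 297 and 253 CPM against 246 CPM in BT-549 and at 136 and 161 CPM against 171 CPM in NCI-H1395. TRIM25 was below its control in both libraries of NCI-H1395 (271 and 198 against 292 CPM) and in library 2 of BT-549 (163 against 203 CPM, with 227 CPM in library 1). It was also below in library 2 of AGS (289 against 356 CPM), whereas library 1 of AGS stood at 352 CPM. All lines together gave log2 fold changes of 0.04 ± 0.11 for MAVS and -0.07 ± 0.11 for TRIM25 (edgeR adjusted p = 0.895 and 0.818).

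Relative to control, TLR3 followed IFIH1 across the ADAR siRNA libraries. Their levels did so less, with a Pearson's r of log2 CPM of 0.27 over the 12 siRNA libraries. TLR3 was at 4.99 and 5.94 CPM with ADAR siRNA against 3.80 CPM in MDA-MB-231 and at 17.1 and 12.9 CPM against 12.1 CPM in AGS. In BT-549 and NCI-H1395 library 1 was near the control (3.91 against 4.45 CPM, and 5.32 against 5.44 CPM), whereas library 2 was well below it, at 1.86 and 2.09 CPM. The counts behind these 2 libraries were 41 and 35, against 88 and 102 in the controls, and the intervals of the ratio were 0.281 to 0.612 and 0.254 to 0.569. Across the 8 ADAR siRNA libraries, Pearson's r between the log2 ratios of IFIH1 and TLR3 was 0.96, the highest of any pair of members. This is a description, because libraries of a line share 1 control and no background over all genes was computed. On the same measure EIF2AK2 stood at 0.84 with IFIH1 and 0.88 with TLR3, and TRIM25 at 0.84 with IFIH1, whereas NLRP1 stood at -0.05 with IFIH1.

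EIF2AK2 was below its control in 6 of 8 libraries, but in both of MDA-MB-231 the counting interval of the ratio covered 1. The share of all genes below control as often was not computed, so nothing is read from that count. EIF2AK2 was at 144 and 140 CPM against 147 CPM in MDA-MB-231 and at 283 and 223 CPM against 313 CPM in BT-549. In NCI-H1395 it was at 173 and 117 CPM against 219 CPM, ratios of 0.791 and 0.535, and in AGS at 164 and 147 CPM against 140 CPM. The log2 value of EIF2AK2 over the lines, -0.17 ± 0.12, missed the threshold (edgeR adjusted p = 0.537). In NCI-H1395 alone it was -0.59 ± 0.27 (edgeR adjusted p = 0.854).

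ZC3HAV1 was below control in both libraries of MDA-MB-231, at 125 and 133 CPM against 176 CPM. In BT-549 it was at 147 and 121 CPM against 158 CPM. The NCI-H1395 libraries stood far apart, at 254 and 119 CPM against 180 CPM, ratios of 1.41 and 0.662, and AGS was at 165 and 172 CPM against 158 CPM. Its log2 fold change from the 4 lines was -0.10 ± 0.12 (edgeR adjusted p = 0.746), and it was 0.02 without MDA-MB-231. In MDA-MB-231 the 100 expressed genes nearest to ZC3HAV1 on chromosome 7 also lay below control, with median log2 ratios of -0.21 and -0.18, beside -0.48 and -0.40 for ZC3HAV1. Their part in the value of ZC3HAV1 was not tested.

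Counted by library, 7 of the 9 genes were above control in each library of MDA-MB-231, with median log2 ratios of 0.22 and 0.20. In AGS 6 and 8 of 9 were above, with medians of 0.22 and 0.13. In BT-549 3 and 2 of 9 were above (medians -0.02 and -0.31), and in NCI-H1395 4 and 1 of 9 (medians -0.03 and -0.60). The median over the 15336 genes with a mean of at least 1 CPM lay between -0.08 and 0.01 in these libraries. The lowest medians of the set were thus those of library 2 of NCI-H1395 and of BT-549.

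Comparing ADAR siRNA library 2 with library 1 over the 4 lines, edgeR called 0 of 9 members (background 14 of 20470 genes, or 0.0684%). At an unadjusted p under 0.05 there were 2, IFIH1 and TLR3, beside 11.7% of all genes, and DESeq2 called 0, with no adjusted p given for TLR3. IFIH1 was lower in library 2 in each line, at 0.968, 0.634, 0.392 and 0.882 times library 1 in MDA-MB-231, BT-549, NCI-H1395 and AGS. Its log2 difference was -0.60 ± 0.19 (edgeR adjusted p = 0.193), and without NCI-H1395 it was -0.34. TLR3 was lower in 3 of 4 lines, with a log2 difference of -0.57 ± 0.26 (edgeR adjusted p = 0.401). TRIM25 was at 1.04, 0.719, 0.732 and 0.822 times library 1 in the same order of lines. MAVS went the other way in AGS, where library 2 was 1.86 times library 1.

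**Figure D3:**
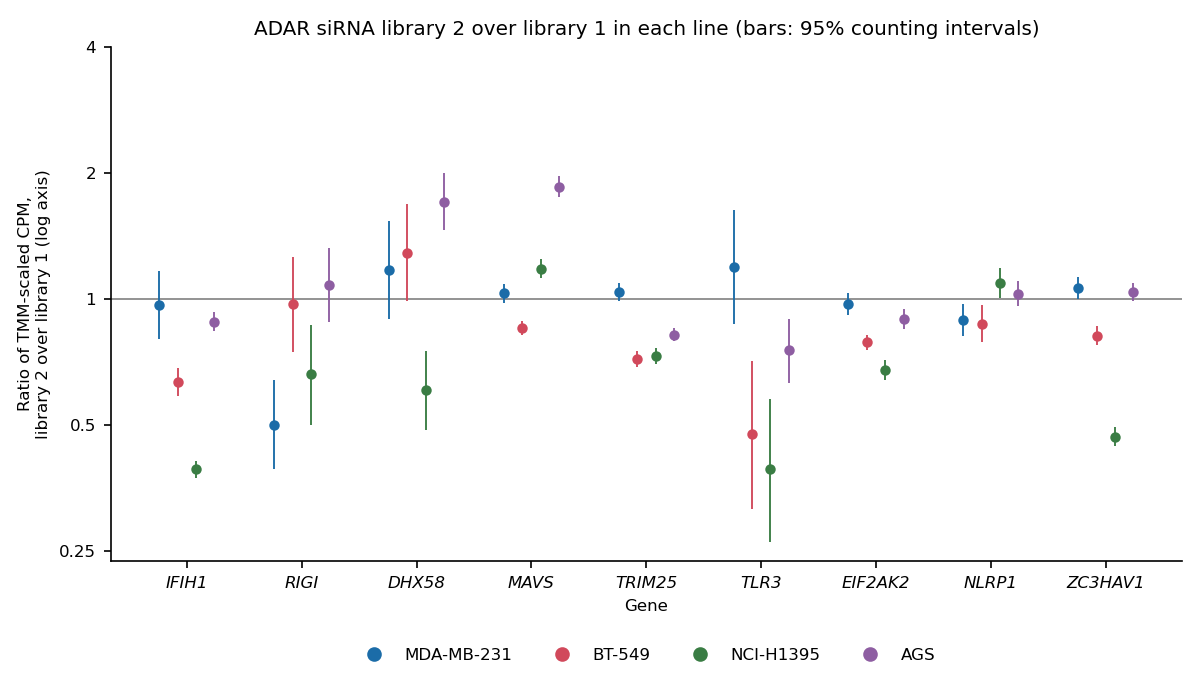
Ratio of TMM-scaled CPM in ADAR siRNA library 2 to library 1, on a log axis, for 9 genes in the 4 lines, with 95% counting intervals. IFIH1 lies between 0.392 and 0.968 and NLRP1 between 0.873 and 1.09, whereas MAVS reaches 1.86 in AGS and ZC3HAV1 lies at 0.469 in NCI-H1395.

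Depth and the spread within these pairs are given here because the libraries differed. In NCI-H1395, library 2 held 14858945 counts against 20963856 in library 1, and 49.4% of the 15336 expressed genes were lower in library 2. Of the 9 members, 7 were lower there, and of 12 genes that the sensors switch on, 11 were lower. In BT-549 the numbers were 8 of 9 and 8 of 12, with 48.1% of genes lower. In MDA-MB-231 they were 4 of 9 and 1 of 12 (34.9% of genes), and in AGS 4 of 9 and 6 of 12 (44% of genes). ADAR in libraries 1 and 2 of NCI-H1395 was at 10.6% and 11.9% of control. The parts of depth and of the ADAR level in these differences were not tested.

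The 12 output genes were IFNB1, IFNL1, IFNL2, IFNL3, IFIT1, IFIT2, IFIT3, ISG15, CXCL10, CCL5, RSAD2 and MX1, a list chosen with earlier results of these data known. With ADAR siRNA edgeR called 0 of 12 over the lines, 6 lay above 0 and 6 below, and the median log2 fold change was 0.03, against 0.05 for all genes. Within lines edgeR called 0 of 12 as well (background 0.117% in MDA-MB-231 and 0.00417% in each other line), and the directions differed. IFNB1, IFNL2 and IFNL3 in MDA-MB-231 and IFNL2 in BT-549 stood at 0 without a standard error. They could not be called there and enter the medians as 0. IFNL1 in MDA-MB-231 rests on 1 and 4 counts with ADAR siRNA. In AGS 11 lay above 0 and 1 below (median 0.23), and in BT-549 2 above and 9 below (median -0.33). In NCI-H1395 4 lay above and 8 below (median -0.13), and in MDA-MB-231 3 above and 6 below (median -0.20), beside medians of all genes between 0 and 0.02 within each line. IFIT3, a tetratricopeptide partner of the RNA-binding IFIT proteins, was at 101 and 115 CPM against 148 CPM in MDA-MB-231 and at 128 and 73.9 CPM against 160 CPM in BT-549. It was at 345 and 98.6 CPM against 325 CPM in NCI-H1395 and at 220 and 214 CPM against 211 CPM in AGS, with a log2 fold change of -0.37 ± 0.12 over the lines (edgeR adjusted p = 0.194). ISG15, a ubiquitin-like modifier, stood at -0.38 ± 0.13 (edgeR adjusted p = 0.199). IFNL1, a type III interferon, was at 5.09 CPM in the AGS control and 5.38 and 10.7 CPM with ADAR siRNA, and at 26 counts or fewer in each library of the other lines. Over the lines IFNL1 stood at 0.89 ± 0.36 (edgeR adjusted p = 0.26). IFNB1, IFNL2 and IFNL3, given after their values were seen, stood at 0.93 ± 0.49, 0.19 ± 0.45 and 0.88 ± 0.62. The 4 genes above 0 in NCI-H1395 were these interferon genes, at 30 counts or fewer in its library 1 and 5 or fewer in library 2. In BT-549 IFNB1 and IFNL3 lay below 0.

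The other pathway lists, also chosen with earlier results known, held no called gene over the 4 lines or within a line. Of 12 cofactors and regulators of the RIG-I-like receptors, 6 lay above 0 and 6 below (median -0.01), and the smallest p-values were those of the helicase-like ZNFX1 (0.27 ± 0.10), the helicase DHX15 (-0.26 ± 0.10) and OASL (-0.21 ± 0.12). Of 18 genes of the relay below MAVS and TICAM1, 11 lay above 0 (median 0.11), led by the ubiquitin ligase TRAF3 (0.37 ± 0.12, edgeR adjusted p = 0.164), IRF7 (0.26 ± 0.14) and TANK (0.20 ± 0.12). TRAF3 was above control in 8 of 8 libraries, by 1.04 to 1.70 times, as were 2.24% of the 15336 expressed genes. It was named for its small p over these same libraries, so this adds no separate support.

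Of 10 genes of the TLR3 pathway, 8 lay above 0 (median 0.17). TAB2, which links ubiquitin chains to the kinase MAP3K7, stood at 0.41 ± 0.11 (edgeR adjusted p = 0.12). It was above control in 8 of 8 libraries, by 1.08 to 1.62 times, and was likewise named for its p over these libraries. PELI1, a ubiquitin ligase of the same branch, stood at 0.39 ± 0.15. Of 13 genes of the PKR arm, 6 lay above 0 (median -0.01), with PPP1R15B at 0.25 ± 0.12, DNAJC3 at 0.25 ± 0.12 and ATF4 at -0.19 ± 0.10. DDIT3, a target of ATF4 named after its values were seen, was at 13.6 CPM in the NCI-H1395 control and 114 and 35.3 CPM with ADAR siRNA. In AGS it was at 85.6 CPM against 84.6 and 70.6 CPM.

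In the necroptosis list 5 of 6 genes were tested, RIPK3 not among them, and 3 lay above 0 (median 0.00). Its smallest p-values were those of CASP8 (0.23 ± 0.13), MLKL (-0.19 ± 0.17) and FADD (-0.12 ± 0.14). Of 11 genes of the NLRP1 inflammasome, 4 lay above 0 (median -0.07), beside 0.47 for NLRP1 itself. IL1B stood at 1.39 ± 0.45 (edgeR adjusted p = 0.175), with 1.61 CPM in the MDA-MB-231 control and 6.94 and 11.9 CPM in its ADAR siRNA libraries. No siRNA library of another line exceeded 2.54 CPM of IL1B. IL18 stood at -0.28 ± 0.16 and CARD8 at 0.18 ± 0.11. Of 10 partners of ZC3HAV1 and TRIM25, 4 lay above 0 (median -0.09), with the nuclease cofactor KHNYN at 0.33 ± 0.12 and the exosome subunits EXOSC7 at -0.26 ± 0.13 and EXOSC5 at -0.20 ± 0.12. Of 14 interferon receptors and factors, 9 lay above 0 (median 0.03), with JAK1 at 0.25 ± 0.11 and IFNGR1 at 0.25 ± 0.13.

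**Figure D4:**
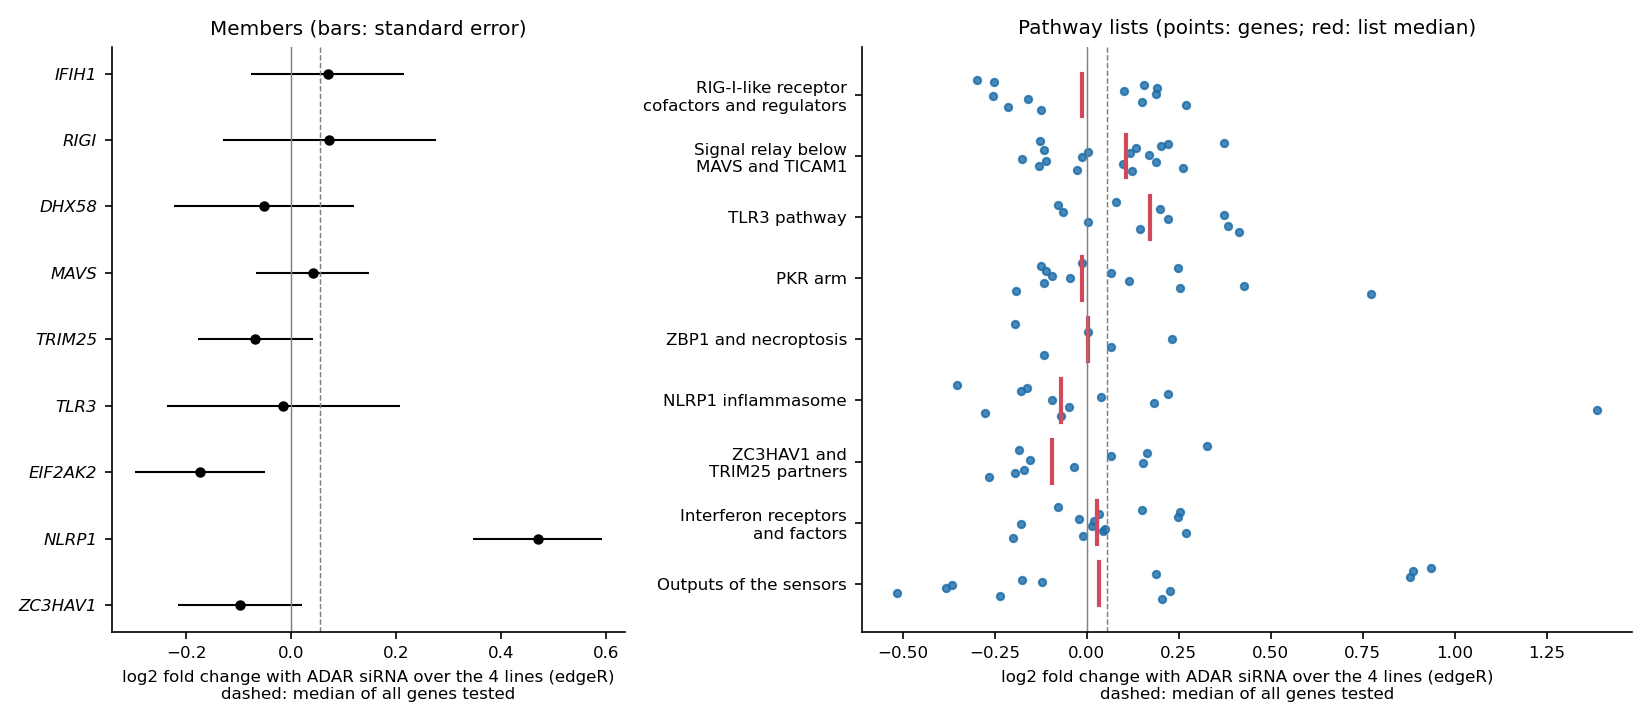
Log2 fold change with ADAR siRNA over the 4 lines from edgeR, for the 9 tested members (left, with standard errors) and for the genes of 9 pathway lists (right, 1 point per gene, red bars at list medians). NLRP1 lies at 0.47 and the other 8 members between -0.17 and 0.07, and no gene shown was called.

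With NOP14 overexpression in MDA-MB-231, 0 of 9 members differed from PCDH by at least 1.5-fold, against 2.95% of the 14201 genes at 1 CPM or more. There was 1 library per arm and so no test. IFIH1 was at 20.3 CPM with NOP14 and 24.97 CPM with PCDH, a ratio of 0.814 with a counting interval of 0.721 to 0.919. It was the only member whose interval did not cover 1. MAVS was at 258 and 259 CPM, NLRP1 at 39.0 and 39.0 CPM, EIF2AK2 at 168 and 175 CPM and TRIM25 at 246 and 250 CPM. ZC3HAV1 stood at 126 and 131 CPM, TLR3 at 14.1 and 13.6 CPM, DHX58 at 10.2 and 10.04 CPM and RIGI at 4.38 and 3.88 CPM.

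The 2 control libraries of MDA-MB-231 differed more than NOP14 and PCDH did. PCDH stood above control siRNA 3.57 times for TLR3 (counting interval 2.76 to 4.68), 2.698 times for IFIH1 (2.28 to 3.21) and 1.76 times for DHX58 (1.40 to 2.22). MAVS stood at 1.47 times, TRIM25 at 1.40 times and EIF2AK2 at 1.19 times. RIGI, ZC3HAV1 and NLRP1 stood below, at 0.614, 0.746 and 0.840 times. The agent given to the cells differed between these libraries, with 1 library of each, so its part cannot be told apart from that of the library. The differences were larger than those of the ADAR siRNA libraries from control siRNA for TLR3, IFIH1, DHX58, MAVS, TRIM25 and EIF2AK2 in this line.

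As a description of pattern, each member was compared with 15327 other genes by Pearson's r of log2 CPM over the 12 siRNA libraries, which come from 4 lines so differences between lines enter each r. The genes most like IFIH1 were CERS5 (0.98), ENSG00000261512 (0.98) and ARFGEF1 (0.97). Those most like TLR3 were EPB41 (0.97), DCP1A (0.95) and IBTK (0.94), and those most like EIF2AK2 were PDP2 (0.97), PMS1 (0.95) and RABGGTB (0.94). DHX58 was most like DBP, DES and NYAP1 (0.96 each), MAVS like MTG2 (0.94), CHMP7 (0.92) and PGM5 (0.92), and NLRP1 like SCYL3 (0.94), EPCAM-DT (0.94) and ENSG00000291081 (0.93). TRIM25 was most like FAM234B, TCF7 (0.94 each) and NUP37 (0.93), and RIGI like CDPF1P1 (0.84), FSBP (0.83) and ENSG00000290415 (0.83). ZC3HAV1 was most like IFIT3 (0.89), one of the output genes above, then USP36 (0.80) and ADAT1 (0.79).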

How the data were processed

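Beads selected poly(A) RNA, which was then fragmented and reverse transcribed from random hexamers, per the labels' protocols. The submitters' processing notes name hg38, featureCounts 2.0.6, STAR 2.7.11a and fastp 0.23.4. No source used here states the strand setting or annotation release, and overlapping genes could have shared or lost reads. The authors deposited whole-number counts, 1 per gene in each library. Of 62702 lines in the table, 3 broken lines of 1 gene were not used.

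Samples were grouped by line and treatment from the labels. The analysis used R 4.3.3, edgeR 4.0.16 and DESeq2 1.42.0, with filterByExpr, TMM, quasi-likelihood fits (robust) and p-values adjusted by Benjamini-Hochberg over all genes tested, at a threshold of 0.05. For the test over the 4 lines, counts of libraries 1 and 2 were first added within each line (8 columns, terms for line and treatment, 3 residual degrees of freedom). Within lines, between lines and for the interaction, 8 groups were fitted to 12 libraries (4 residual degrees of freedom). The alternative between lines with all 3 siRNA libraries of each line had terms for line and treatment. It assumes 1 ADAR siRNA effect shared by all lines. Library 2 was compared with library 1 over 8 libraries with line as a term. The ± of a log2 value is its standard error. NOP14 was compared with PCDH by ratios (prior count 2, no test). Intervals cover 95% and, like the floor of 3 counts, cover counting error only. TPM used the exonic lengths of the deposited table.

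The members and lists were chosen with earlier results of these data known. Named are all members, the 3 genes with the smallest p over the 4 lines in each list, and the 3 genes most like each member. One gene that this rule names is not reported here. The bias-adjusted quasi-likelihood method of edgeR was used rather than its earlier one, a choice made after the data were seen. On simulated counts the bias-adjusted method still called some unchanged genes over the threshold's share. The earlier method is an alternative, beside other scalings, count filters, DESeq2, unsummed libraries, 1 library number alone, a replicate block, and leaving out lines or libraries. Libraries 1 and 2 of a line differed well beyond counting noise, so none was a duplicate.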

Additional observations from a re-analysis of the deposited data

How the results depend on the processing

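Over the 4 lines the number of members called stayed at 0 except with DESeq2, which called 1 (NLRP1). The number of all genes called, 29, was 47 with median-ratio scaling, 58 with library totals, 89 with no filter on low counts, 0 with a stricter filter (average log2 CPM of 1 or more), 676 with DESeq2, 4 with unsummed libraries, 3 with libraries numbered 2 alone, 4 with the earlier quasi-likelihood method and 0 (without BT-549, NCI-H1395 or AGS) to 106 (without MDA-MB-231) leaving out a line. The median of all genes was 0.11 with library totals and 0.207 with no filter. With a replicate block on the library number 90 genes were called over the lines, 71 within MDA-MB-231, 4 within NCI-H1395 and 8 within AGS, and 0 members; deviations of same-numbered libraries correlated at 0.336, 0.154 and 0.175 among BT-549, NCI-H1395 and AGS and between -0.07 and 0.03 with MDA-MB-231, so not every pair passed 0.1 and the numbers were not taken as pairs.

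Members changed direction, all below the threshold, as follows. With libraries numbered 2 alone RIGI was -0.16 and IFIH1 -0.32, and with libraries numbered 1 alone MAVS was -0.10, TLR3 0.20 and TRIM25 0.0487. With the replicate block IFIH1 was -0.0217. With library totals DHX58 was 0.0043 and TLR3 0.0432, and with no filter TLR3 was 0.0336. Leaving out a line gave -0.0900 (without MDA-MB-231) to 0.299 (without NCI-H1395) for RIGI, also -0.00995 without AGS; -0.0719 (without MDA-MB-231) to 0.223 for IFIH1; -0.158 to 0.0686 (without BT-549) for DHX58; -0.185 (without AGS) to 0.155 (without BT-549) for TLR3, also 0.115 without NCI-H1395; -0.174 to 0.0178 (without MDA-MB-231) for ZC3HAV1; and -0.144 to 0.00423 (without NCI-H1395) for TRIM25.

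Within MDA-MB-231 the 28 genes called were 50 with no filter, 11 with the stricter filter, 45 with DESeq2, 18 with the earlier method and 0 without either library; EIF2AK2 was 0.0677 with library totals and 0.0174 with the stricter filter. DESeq2 called 3, 47 and 14 genes within BT-549, NCI-H1395 and AGS, and no filter gave 4 in AGS. Leaving out a library gave up to 12 in BT-549, 6 to 24 in NCI-H1395 and up to 3 in AGS. Without library 1 and without library 2, TRIM25 in BT-549 was -0.315 and 0.166, and in NCI-H1395 IFIH1 was -1.14 and 0.233, DHX58 -0.566 and 0.177, and ZC3HAV1 -0.622 and 0.49. In AGS DHX58 was 0.262 and -0.509, and MAVS 0.49 and -0.40; DHX58 was 0.0242 with library totals. For the difference between lines, 3 genes became 0 with library totals, 43 with DESeq2, 7 with the earlier method and 0 to 8 leaving out a line.

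With all 3 siRNA libraries of each line, 21392 genes were tested. Those called between lines were 12809 (BT-549 against MDA-MB-231), 12876 (NCI-H1395 against MDA-MB-231), 13349 (AGS against MDA-MB-231), 11196 (NCI-H1395 against BT-549), 12500 (AGS against BT-549) and 12115 (AGS against NCI-H1395). In the same order, the members called were 4, 1, 5, 3, 8 and 5 of 9. Beside such large shares of all genes, nothing is read from these counts about the set. Then BT-549 against MDA-MB-231 was -0.00133 for DHX58, -0.58 for TLR3 and -0.00926 for TRIM25, NCI-H1395 against MDA-MB-231 -0.26 for RIGI and -0.20 for TLR3, AGS against MDA-MB-231 0.062 for EIF2AK2 and 0.19 for ZC3HAV1, and AGS against NCI-H1395 0.55 for RIGI. NCI-H1395 against MDA-MB-231 was 0.0759 for MAVS with library totals and -0.0558 for ZC3HAV1 with median-ratio scaling and with DESeq2. With library totals 0 members were called between AGS and NCI-H1395. For library 2 against 1 the 14 genes called became 6 with library totals, 64 with DESeq2, 6 with the earlier method and 3 to 154 (without MDA-MB-231) leaving out a line; DHX58 was -0.0899 without AGS and 0.459 without NCI-H1395. The cause of these changes was not tested. The earlier method was added after seeing the data. At 35 to 453 counts per library, values of TLR3, DHX58 and RIGI are limited by depth.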
